A study of Homo sapiens with 12 samples.

Results

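The effect of glucose given without glutamine was read from 6 RNA-seq libraries of the human cell line MDA-MB-231, which derives from a breast adenocarcinoma and is widely used. The 3 glucose-only libraries came from cells kept for 36 h in medium with 25 mM glucose and no glutamine. The 3 deficient libraries came from cells kept for the same time in medium with neither nutrient. Both media held 3% fetal bovine serum, and the cells had been grown before in high-glucose salt solution with 10% serum and antibiotics. Of the 63187 genes in the table, 32493 had a read in any of the study's 12 libraries, and the 9270 genes described here reached a normalised count of 10 or more in 3 or more of those 12. The other 6 libraries, 3 with 4 mM glutamine alone and 3 with both nutrients (full medium), entered the same fit and are used only beside the main comparison. Whether the 3 libraries of each medium stem from independent cultures is not stated, so p-values measure the spread between libraries, which may be technical. Nor do they say whether the serum was dialysed, which sets how much glucose and glutamine the deficient medium still held.

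Glucose feeds glycolysis, the pentose phosphate branch and the hexosamine branch that makes the sugar donors for protein glycosylation. Cells read glucose through the transcription factor MondoA, whose best known target is TXNIP, and lack of glucose is a textbook trigger of the unfolded protein response, in which chaperones such as HSPA5 (BiP, once named glucose-regulated protein) are induced. Glutamine supplies nitrogen and carbon, and its lack is read by the kinase GCN2, which raises translation of ATF4. Heat shock factor 1 drives cytosolic chaperone genes when proteins misfold.

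Promoter letters of 4 genes are shown because these genes had the largest changes among the cytosolic chaperones and the MondoA network. Each stretch is the 200 bases before an annotated RefSeq start (GRCh38.p14), 5′ to 3′ on the strand of the gene. Capitals mark matches, on either strand, to the heat shock element, in which the units GAA and TTC alternate with NN between them. It was searched in a 3-unit form (GAA, TTC, GAA) and in both 2-unit forms that lie inside it (GAANNTTC and TTCNNGAA). For TXNIP the capitals mark the carbohydrate response element, CACGNG, 5 bases of any kind and CACGNG again.
HSPA6, chr1:161524340-161524539, plus strand: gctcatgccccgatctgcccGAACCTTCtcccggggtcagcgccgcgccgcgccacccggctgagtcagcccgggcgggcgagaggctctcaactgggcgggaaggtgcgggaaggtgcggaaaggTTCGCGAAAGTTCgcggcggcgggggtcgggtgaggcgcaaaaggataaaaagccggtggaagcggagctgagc
DNAJB1, chr19:14518398-14518597, minus strand: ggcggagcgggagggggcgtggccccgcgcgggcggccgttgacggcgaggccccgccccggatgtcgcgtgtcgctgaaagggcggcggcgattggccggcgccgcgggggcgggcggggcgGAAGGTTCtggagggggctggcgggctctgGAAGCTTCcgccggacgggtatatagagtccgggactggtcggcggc
HSP90AA1, chr14:102087045-102087244, minus strand: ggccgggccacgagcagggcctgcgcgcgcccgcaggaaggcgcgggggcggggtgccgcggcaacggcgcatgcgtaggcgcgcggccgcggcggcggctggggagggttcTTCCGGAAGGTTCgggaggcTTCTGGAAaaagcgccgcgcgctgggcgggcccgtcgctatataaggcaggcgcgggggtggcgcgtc
TXNIP, chr1:145996580-145996779, minus strand: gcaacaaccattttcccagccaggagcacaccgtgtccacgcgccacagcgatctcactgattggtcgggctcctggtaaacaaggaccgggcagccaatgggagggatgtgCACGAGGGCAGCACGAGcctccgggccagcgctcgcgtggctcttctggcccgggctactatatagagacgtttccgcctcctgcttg
DNAJB1 had 3 annotated windows and HSP90AA1 and TXNIP had 2 each, of which the window with the most matches is printed. The 3-unit matches began 74 bases before the start in HSPA6 and 88 before it in HSP90AA1, the 2-unit matches of DNAJB1 began at 77 and 47, and the TXNIP match at 88. HSPH1, which belongs with these 4 by the size of its change, had no match in its window and is not printed. A match describes letters in a window and shows no binding.

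The 6 libraries held 875033 to 1473587 reads assigned to genes, so that 1 read was worth a normalised count of 0.661 to 1.30 over the study. Deficient libraries ran from 930776 to 1473587 reads and glucose-only libraries from 875033 to 994376. By kind of RNA, mitochondrial ribosomal RNA took 16 ± 0.984% of reads in deficient and 12.2 ± 1.09% in glucose-only libraries (SD, n = 3), mitochondrial tRNA 11.1 ± 2.19% and 14.8 ± 0.81%, and protein-coding genes 47.3 ± 4.34% and 44.4 ± 2.51%. The part these shares play in the results was not tested beyond the scalings given below. The labels call the cells epithelial, and among 13 epithelial markers CDH1 (E-cadherin) and KRT14 had no read in the 6 libraries, 8 stayed under 10, and KRT18 reached 396. All 7 mesenchymal markers listed for this line were read, VIM up to 1047, and their summed level was 3305 to 3614 in deficient and 2485 to 2560 in glucose-only libraries. None of 9 fibroblast markers, 10 of blood cells or 6 of adipocytes reached 10, and of 7 endothelial markers KDR alone did, with at most 15.7. In bulk RNA, fewer cells of a kind and less RNA per cell cannot be told apart.

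Glucose alone changed a large part of the measured transcriptome. With limma on log2(normalised count + 1) over all 12 libraries, 4008 of 9270 genes (43.2%) passed a Benjamini-Hochberg adjusted p of 0.05. Of these, 1859 were higher (20.1% of genes tested) and 2149 lower (23.2%) in glucose-only than in deficient libraries. Changes of at least 2-fold numbered 1567, of which 770 were higher and 797 lower, and 4504 genes (48.6%) had groups that did not overlap. Among the called genes 46.4% were higher with the deposited scaling and 63.5% when libraries were set to equal totals, which raised the median change of all genes by 0.18 on the log2 scale. The change also went with level: the median log2 change of protein-coding genes was 0.31 over the 1710 with the lowest mean counts and -0.26 over the 1708 with the highest. Of the 1708 highest, 301 were called higher and 814 lower, and of the 1710 lowest, 385 were called higher and 146 lower. The gene lists below are read beside the share of all genes called and beside the median of all genes, -0.00 on the log2 scale. Neither is matched for level, so the share of all genes understates the lower calls found among abundant genes.

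**Figure D1:**
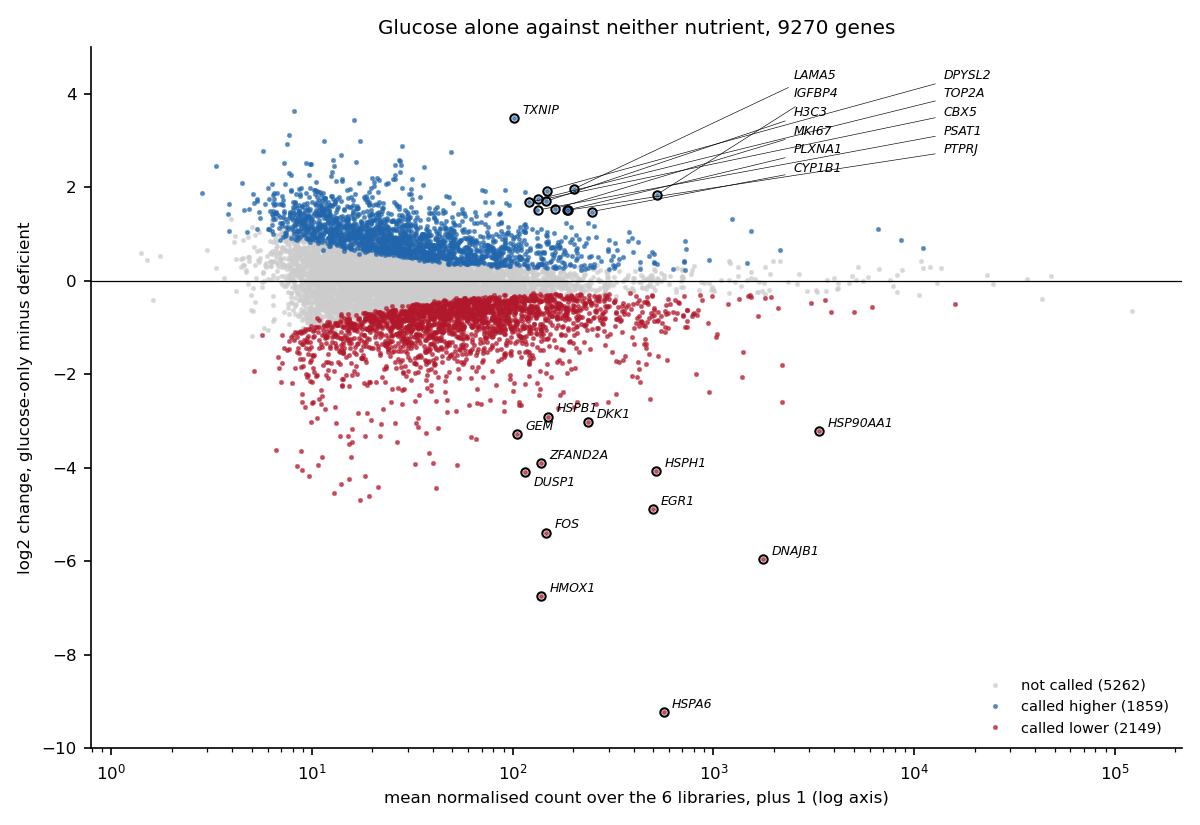
Each point is 1 of 9270 genes, with the mean normalised count over the 6 libraries plus 1 on a log axis and the log2 change, glucose-only minus deficient, on the vertical axis. Blue points were called higher and red points lower (limma, adjusted p under 0.05), and the 12 highest and 12 lowest named genes are circled, from TXNIP at 3.47 to HSPA6 at -9.22.

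TXNIP, an arrestin-like protein that restrains glucose uptake and binds thioredoxin, had the highest log2 change among genes with a mean of at least 100. Its normalised counts were 15.6, 16.9 and 14.8 in the deficient libraries and 186, 195 and 174 in the glucose-only libraries (log2 change 3.47, SE 0.17, adjusted p = 1.5e-15). The groups were far apart, and with glutamine present glucose also raised TXNIP, from 9.37 ± 2.75 in glutamine-only to 123 ± 9.24 in full medium (SD, n = 3). The log2 effects without and with glutamine, 3.47 and 3.61, did not differ past the threshold (difference -0.14, SE 0.25, adjusted p = 0.72). The MondoA and ChREBP list as a whole was mixed: 2 of 6 tested genes were higher, TXNIP and TKFC (log2 change 1.40), but 1 after quantile normalisation or without glucose-only replicate C, and 2 were lower, KLF10 (log2 change -1.42) and RGS16 (-2.61). The MondoA gene MLXIP and its partner MLX had log2 changes of -0.02 and -0.33 and were not called. ARRDC4, the paralogue of TXNIP that is also a MondoA target, stayed under 10 in all 6 libraries and was not tested. The TXNIP element occurred in the windows of 12 of 7281 tested genes (0.165%), of which 3 were called higher and 4 lower.

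Several genes of the cell surface, of matrix contact and of chromatin were among the highest changes. LAMA5, a laminin chain of basement membranes, had normalised counts of 84.6, 95.4 and 66.0 in the deficient libraries and 324, 314 and 323 in the glucose-only libraries (log2 change 1.97, SE 0.11, adjusted p = 2.6e-14). IGFBP4, a secreted protein that binds insulin-like growth factors, had 241, 251 and 192 in the deficient libraries and 786, 792 and 869 in the glucose-only libraries (log2 change 1.84, SE 0.10, adjusted p = 1.1e-14). Groups without overlap were a condition for naming both genes. The lowest glucose-only library stood more than 3 times above the highest deficient one for both. DPYSL2, a tubulin-binding protein, changed by 1.93, CBX5 (heterochromatin protein HP1 alpha) by 1.68, the semaphorin receptor PLXNA1 by 1.51, the receptor phosphatase PTPRJ by 1.51 and CYP1B1, a cytochrome P450, by 1.48 on the log2 scale. LAMA5 averaged 378 in glutamine-only and 357 in full medium, and IGFBP4 958 and 1770.

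Genes of chromosome duplication and division were higher with glucose. Of 41 replication-dependent histone genes tested, which are transcribed mostly in S phase, 40 were called higher and none lower (median log2 change 1.503, against 20.1% of all genes called higher). H3C3 had normalised counts of 62.5, 62.8 and 80.0 in the deficient libraries and 230.1, 217 and 223 in the glucose-only libraries (log2 change 1.70, SE 0.11, adjusted p = 3.4e-13). H2AC11 had 10.4, 18.1 and 10.9 in the deficient libraries and 54.2, 50.3 and 64.7 in the glucose-only libraries (log2 change 2.06, SE 0.19, adjusted p = 7.9e-10). H1-2, a linker histone, had the smallest called change at 0.36. The groups of H3C3 and H2AC11 did not overlap. Together the listed histone genes took 0.192 ± 0.00686% of nuclear protein-coding reads in deficient, 0.546 ± 0.0245% in glucose-only, 0.318 ± 0.014% in glutamine-only and 1.32 ± 0.0866% in full medium (SD, n = 3). Histone genes share near-identical sequence, and how reads that fit several copies were counted is not given in the sources used here, so single histone genes are uncertain.

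Among 41 mitosis genes, 27 were higher and none lower (median 0.94). TOP2A, the topoisomerase that untangles replicated DNA, had 62.5, 58.0 and 60.6 in the deficient libraries and 196, 192 and 226 in the glucose-only libraries (log2 change 1.74, SE 0.10, adjusted p = 4.1e-14). MKI67, the proliferation marker Ki-67, had 65.1, 100.2 and 83.1 in the deficient libraries and 249, 247 and 221 in the glucose-only libraries (log2 change 1.54, SE 0.12, adjusted p = 2e-11). ASPM, a spindle pole protein, rose by 1.95 and cyclin B1 (CCNB1) by 1.12 on the log2 scale. All these groups were separate, yet every library of full medium was far higher still, with TOP2A at 573 ± 32.0 and MKI67 at 533 ± 11.7. In the DNA replication list 24 of 38 genes were higher and none lower (median 0.89), led among genes with a mean of at least 30 by MCM3 (0.95), RRM1 (0.82), POLE (0.70) and MCM4 (0.66), subunits of the replicative helicase, ribonucleotide reductase and DNA polymerase epsilon. RRM2, the S-phase subunit of ribonucleotide reductase, had 6.51, 7.25 and 10.9 in the deficient libraries and 45.8, 37.7 and 50.6 in the glucose-only libraries (log2 change 2.33, SE 0.20, adjusted p = 1.6e-10). The cell cycle homology region, searched as TTTGAA, occurred in the promoter windows of 28 of 35 mitosis genes (80%), against 14.3% of tested genes and 15.2% of all windows, on either strand. By call it occurred in 18.5% of genes called higher, 13.3% of those called lower and 13.2% of those not called.

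**Figure D2:**
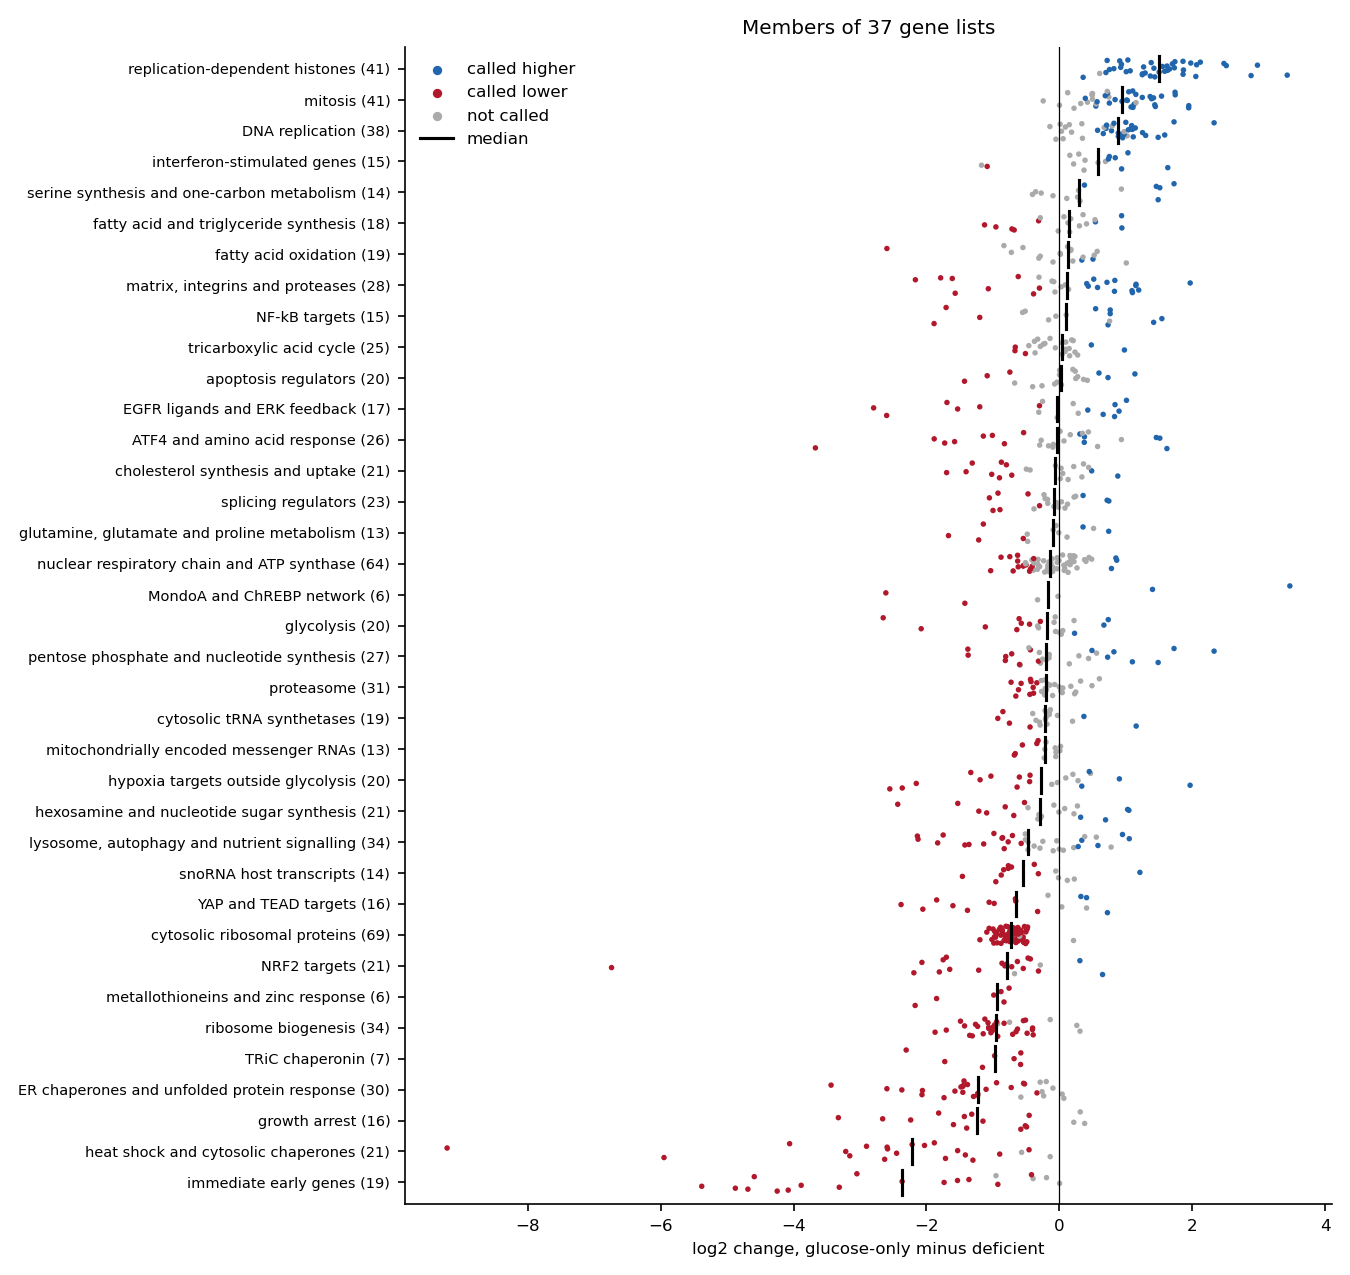
Log2 change, glucose-only minus deficient, of each tested member of 37 gene lists, ordered by the list median (black bar), with the number of tested members in brackets. Members called higher are blue, called lower red and not called grey. Histone, mitosis and DNA replication genes lie to the right with medians of 1.503, 0.94 and 0.89, and immediate early genes and cytosolic chaperones to the left with medians of -2.37 and -2.22.

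Cytosolic chaperones were lower with glucose. Of 21 tested heat shock and chaperone genes 19 were called lower and none higher (median log2 change -2.22, against 23.2% of all genes called lower). DNAJB1, an HSP40 co-chaperone, had normalised counts of 3341, 3502 and 3617 in the deficient libraries and 65.0, 50.3 and 51.7 in the glucose-only libraries (log2 change -5.95, SE 0.11, adjusted p = 1.1e-26). HSP90AA1, the inducible HSP90, had 5531, 6119 and 6506 in the deficient libraries and 694, 637 and 618 in the glucose-only libraries (log2 change -3.22, SE 0.10, adjusted p = 2.6e-20). HSPA8, the constitutive HSC70, had 3807, 3376 and 4081 in the deficient libraries and 629, 607 and 623 in the glucose-only libraries (log2 change -2.59, SE 0.10, adjusted p = 9.6e-18). Each deficient library was more than 5 times as high as any glucose-only library for these 3 genes. HSPA6, a strictly inducible HSP70, rested on 882, 925 and 1442 reads in deficient and 1, 2 and 0 reads in glucose-only libraries. That is a ratio of 989.6 with an exact conditional 95% interval of 338 to 4801, which covers counting error only. HSPH1, an HSP110 exchange factor, changed by -4.06, HSPB1, a small heat shock protein, by -2.90 and ZFAND2A, a proteasome-associated protein induced by arsenite, by -3.89 on the log2 scale. DNAJB2 (-0.14) and the transcription factor HSF2 (-0.57) were not called.

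The listed chaperone genes took 3.91 ± 0.117% of nuclear protein-coding reads in deficient libraries and 0.702 ± 0.00697% in glucose-only, 0.886 ± 0.0117% in glutamine-only and 0.752 ± 0.0144% in full medium (SD, n = 3). Of the 7 tested genes for TRiC, the chaperonin that folds actin and tubulin, 7 were lower (median -0.97), from TCP1 at -2.31 and CCT4 at -1.73 to CCT7 at -0.58. HSPA1A and HSPA1B, the near-identical inducible HSP70 genes, did not pass the filter, with at most 3.91 and 1.30 in deficient libraries, and how reads that fit both copies were counted is not given in the sources used here. The 3-unit heat shock element printed above for HSPA6 and HSP90AA1 occurred in 7 of 20 listed genes with a window (35.0%), against 0.481% of 7281 tested genes and 0.490% of all windows. The genes were HSPA6, HSPA8, DNAJA1, DNAJB6, HSP90AA1, HSP90AB1 and HSPD1. Its 2-unit forms, which lie inside it, were found in 6.65% and 8.39% of tested genes.

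Chaperones of the endoplasmic reticulum fell as well, by a smaller median. Among 30 genes of the unfolded protein response 22 were lower and none higher (median -1.23). HSPA5, the luminal HSP70, had 1623, 1530 and 1643 in the deficient libraries and 286, 313 and 327 in the glucose-only libraries (log2 change -2.37, SE 0.09, adjusted p = 6.2e-18). HSP90B1, the luminal HSP90, had 2148, 2211 and 2340 in the deficient libraries and 532, 514 and 556 in the glucose-only libraries (log2 change -2.06, SE 0.10, adjusted p = 3.5e-16). MANF, a secreted protein induced by this response, had 159, 158 and 144 in the deficient libraries and 24.1, 26.2 and 23.5 in the glucose-only libraries (log2 change -2.60, SE 0.16, adjusted p = 1.8e-13). None of these groups overlapped. DNAJB9, a co-chaperone of HSPA5, changed by -2.07, while the sensors ATF6 (0.07) and ERN1 (-0.26) were not called and EIF2AK3 (PERK) changed by -1.45. XBP1 was lower by -1.44. The luminal chaperones were high in glutamine-only medium too: HSPA5 averaged 1274 there and 256 in full medium, and the listed genes took 1.43 ± 0.0199% of nuclear protein-coding reads in deficient, 1.87 ± 0.0237% in glutamine-only, 0.601 ± 0.0192% in glucose-only and 0.587 ± 0.014% in full medium. The ER stress element, CCAAT followed after 9 bases of any kind by CCACG, lay in the windows of 7 of 27 of these genes (25.9%), HSPA5, HSP90B1, PDIA6, CALR, CANX, CRELD2 and XBP1, and in 13 of 7281 tested genes (0.179%), 11 of which were called lower and none higher.

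**Figure D3:**
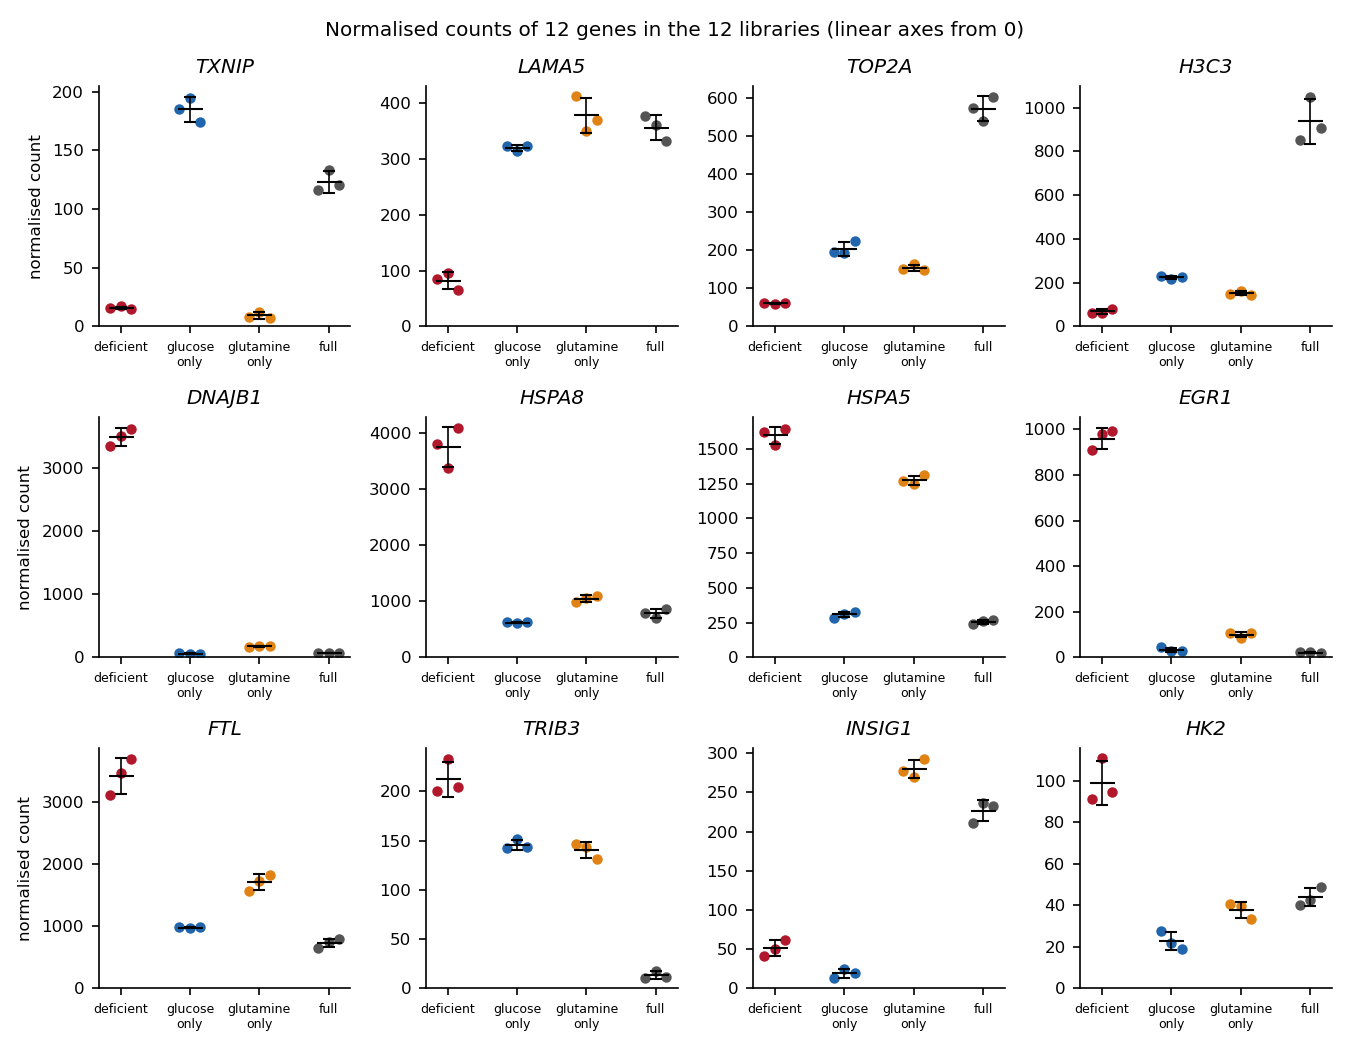
Normalised counts of 12 genes in each of the 12 libraries, on linear axes that start at 0, with points for libraries and black bars for the mean and SD of 3. DNAJB1, HSPA8 and EGR1 stand high in the deficient medium alone, HSPA5 in both media without glucose, TXNIP in both media with it, and INSIG1 in both media with glutamine.

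The ATF4 list went in both directions, at shares not far above those of all genes, 20.1% higher and 23.2% lower. Of 26 tested targets and effectors 6 were higher and 8 lower (median -0.04, and 0.14 at equal totals with 8 higher and 7 lower), and the higher count fell to 3 without deficient replicate C. The lower members included stress effectors: ATF3 changed by -3.67, PPP1R15A, which recruits the phosphatase for eIF2 alpha, by -1.88, the transcription factor DDIT3 (CHOP) by -1.73 and the secreted cytokine GDF15 by -1.58. DDIT3 had normalised counts of 88.5, 89.3 and 83.1 in the deficient libraries and 26.5, 28.3 and 22.3 in the glucose-only libraries (log2 change -1.73, SE 0.29, adjusted p = 1.9e-05). ATF4 mRNA itself (-0.10) was not called. TRIB3, a pseudokinase that represses ATF4 and CHOP, had 200.5, 233 and 204 in the deficient libraries and 142, 152 and 143 in the glucose-only libraries (log2 change -0.54, SE 0.14, adjusted p = 0.0032), groups that did not overlap, but it was no longer called at equal totals or after quantile normalisation. Members that rose against this were PSAT1, PSPH, SHMT2 and ADM2, together with DDIT4 and SLC7A11, which both lost their call in DESeq2 and when single libraries were left out (DDIT4 deficient replicate C or glucose-only B or C, SLC7A11 deficient B or C or glucose-only A or C). PSAT1, an enzyme of serine synthesis, had 67.7, 54.3 and 83.1 in the deficient libraries and 182, 226 and 178 in the glucose-only libraries (log2 change 1.51, SE 0.14, adjusted p = 1.7e-09). In all, 5 of 14 serine and one-carbon genes were higher and none lower (median 0.30), among them PSPH (1.46), SHMT2 (0.38, 0.29 and not called without deficient replicate C) and TYMS (1.73, 0.93 and not called without deficient replicate A, and not called in DESeq2).

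Several genes of amino acid handling were lower, but most members of the 2 lists below were not called. SLC38A2, a neutral amino acid transporter that takes up glutamine, had 1446, 1323 and 1509 in the deficient libraries and 665, 624 and 643 in the glucose-only libraries (log2 change -1.14, SE 0.09, adjusted p = 7.9e-11). GLUL, which makes glutamine from glutamate, had 105, 161 and 129 in the deficient libraries and 38.5, 41.9 and 40.0 in the glucose-only libraries (log2 change -1.67, SE 0.14, adjusted p = 1.5e-10). Both pairs of groups were separate and lower with glucose. GCLC, the catalytic subunit for glutathione synthesis, changed by -1.21. In the list of glutamine, glutamate and proline metabolism 4 of 13 were lower, 2 higher and 7 not called, against 23.2% of all genes lower and 20.1% higher. The higher count was 0 in DESeq2 and without deficient replicate C or glucose-only replicate A, and 1 without deficient A or glucose-only B or C. Of 19 cytosolic tRNA synthetases 4 were lower, TARS1 (-0.85) and KARS1 (-0.93) among them, 2 were higher and 13 were not called. Both the lower and the higher share were under those of all genes. The higher count was 0 in DESeq2 and without deficient replicate A, and 1 without glucose-only replicate B or C.

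Immediate early genes, transcribed within minutes of a stimulus, were lower as well. Of 19 tested, 15 were lower and none higher (median -2.37). EGR1 had normalised counts of 907, 978 and 992 in the deficient libraries and 44.6, 26.2 and 27.0 in the glucose-only libraries (log2 change -4.88, SE 0.15, adjusted p = 3e-20). FOS had 305, 262 and 286 in the deficient libraries and 7.23, 10.5 and 2.35 in the glucose-only libraries (log2 change -5.38, SE 0.27, adjusted p = 2e-15). DUSP1, a phosphatase of MAP kinases, had 229, 203 and 217 in the deficient libraries and 7.23, 14.7 and 15.3 in the glucose-only libraries (log2 change -4.08, SE 0.23, adjusted p = 2.7e-14). All deficient libraries stood more than 10 times above all glucose-only libraries in these genes. FOS rested on 819 reads in deficient and 18 in glucose-only libraries, a ratio of 41.6 with a 95% counting interval of 26.1 to 70.5. FOSB changed by -3.89, while MCL1 (-0.19) and FOSL2 (0.00) were not called. Of 16 growth arrest genes 13 were lower and none higher (median -1.24): GADD45B changed by -2.66, GADD45A by -2.24, the CDK inhibitor CDKN1A (p21) by -1.59 and KLF4 by -1.43, and CDKN1B (0.38) was not called.

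Growth factor and mechanical targets were mixed. In the list of EGFR ligands and ERK feedback genes 6 of 17 were higher and 6 lower. IL11 (-2.80), DUSP5 (-2.60), SPRY2 (-1.69) and HBEGF (-1.53) were lower, while DUSP6 (0.66), DUSP4 (0.83) and SPRED1 (0.84), other brakes on ERK signalling, were higher. YAP and TEAD targets were lower in 10 of 16 cases and higher in 3 (median -0.66). CCN1, a matricellular protein, had 779.7, 794 and 816 in the deficient libraries and 260.2, 263 and 262 in the glucose-only libraries (log2 change -1.60, SE 0.09, adjusted p = 3.7e-14). CCN2 changed by -2.38, ANKRD1 by -2.06 and LATS2 by -1.85, while AJUBA (0.72), NT5E (0.41) and PTPN14 (0.32) were higher, PTPN14 not when glucose-only replicate A was left out. Secreted factors with large falls included DKK1, an inhibitor of Wnt signalling, at 457, 371 and 437 in the deficient libraries and 57.8, 51.3 and 44.7 in the glucose-only libraries (log2 change -3.02, SE 0.14, adjusted p = 3e-16), and the GTPase GEM changed by -3.28.

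Matrix genes were mixed. Of 28 genes of matrix, integrins and proteases 13 were higher and 8 lower (median 0.11). The collagenase MMP1 had 729, 675 and 707 in the deficient libraries and 143, 156 and 169 in the glucose-only libraries (log2 change -2.17, SE 0.12, adjusted p = 1.2e-14). Thrombospondin 1 (THBS1) changed by -1.79, COL12A1 by -1.57 and VIM (vimentin) by -0.62, VIM not called after quantile normalisation. Laminin and integrin subunits were among the higher genes, with LAMA5 as above, ITGB4 at 1.16 and ITGA6 at 1.15. These 2 integrins, and the collagens COL13A1 (1.10) and COL6A1 (1.20), are named after their values were seen.

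Redox and metal defence genes were lower. Among 21 NRF2 targets 17 were lower and 2 higher (median -0.79). FTL, the ferritin light chain, had 3108, 3459 and 3684 in the deficient libraries and 978, 964 and 978 in the glucose-only libraries (log2 change -1.81, SE 0.11, adjusted p = 4.1e-14). TXNRD1, thioredoxin reductase, had 928, 816 and 932 in the deficient libraries and 271, 274 and 275 in the glucose-only libraries (log2 change -1.70, SE 0.09, adjusted p = 1.2e-14). Their groups did not overlap, and FTH1, the ferritin heavy chain, changed by -2.19. HMOX1, haem oxygenase, rested on 192, 258 and 331 reads in deficient and 0, 1 and 6 in glucose-only libraries, a ratio of 102.0 with a 95% counting interval of 49.2 to 254. The transporter ABCC3 (0.65) and SLC7A11, the cystine importer (0.31), were the 2 that were higher, and 1 of them was not called when deficient replicate B or C or glucose-only replicate A or C was left out. All 6 metallothionein and zinc response genes tested were lower (median -0.93), with MT2A at -0.99, MT1E at -0.83 and the zinc exporter SLC30A1 at -0.76. Metallothionein copies are similar in sequence, so their single values are uncertain.

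The ribosome and its assembly were lower. Of 69 cytosolic ribosomal protein genes 67 were lower and none higher (median -0.73), and the medians were -0.55 at equal totals and -0.36 after quantile normalisation. RPL24 had 484, 555 and 599 in the deficient libraries and 235, 240.0 and 236 in the glucose-only libraries (log2 change -1.20, SE 0.10, adjusted p = 1.7e-10). The groups of RPL24 did not overlap. As a share of nuclear protein-coding reads the listed genes took 6.62 ± 0.366% in deficient, 4.74 ± 0.0337% in glucose-only, 6.12 ± 0.184% in glutamine-only and 4.59 ± 0.301% in full medium. Many ribosomal protein genes have processed pseudogenes, and 40 of 83 processed pseudogenes tested were lower and 1 higher. In the ribosome biogenesis list 29 of 34 were lower and none higher (median -0.96), including NOB1 (-1.70), UTP14A (-1.49) and PNO1 (-1.43), which process the small subunit. MYC, which drives this programme in many cells, had 311, 318 and 329 in the deficient libraries and 85.5, 79.6 and 95.2 in the glucose-only libraries (log2 change -1.87, SE 0.12, adjusted p = 3.4e-13). Its level in glutamine-only (73.0 ± 2.98) and full medium (43.9 ± 5.36) was likewise far under the deficient level.

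Genes of glycolysis moved in both directions with glucose alone. Of 20 tested, 3 were higher and 8 lower (median -0.18, and -0.00 at equal totals with 4 higher and 6 lower). Over all genes 20.1% were higher and 23.2% lower with the deposited scaling. As a share of nuclear protein-coding reads the listed genes were higher with glucose, at 0.621 ± 0.0126% in deficient and 0.699 ± 0.00477% in glucose-only libraries (SD, n = 3). HK2, hexokinase 2, had 91.1, 111 and 94.7 in the deficient libraries and 27.7, 22.0 and 18.8 in the glucose-only libraries (log2 change -2.08, SE 0.17, adjusted p = 6.3e-11). SLC2A3, the glucose transporter GLUT3, had 193, 175 and 195 in the deficient libraries and 26.5, 32.5 and 28.2 in the glucose-only libraries (log2 change -2.65, SE 0.14, adjusted p = 5.7e-15). These groups were separate, whereas those of PGK1, phosphoglycerate kinase, overlapped, with 169, 121 and 160.0 in the deficient libraries and 130.1, 107 and 129 in the glucose-only libraries (log2 change -0.29, SE 0.11, adjusted p = 0.043). PGK1 lost its call in edgeR, in DESeq2, at equal totals, after quantile normalisation and without deficient replicate A or C or glucose-only replicate B. The lactate exporter SLC16A3 (0.74) and PFKL (0.67, not called in DESeq2) were higher, and ENO1 (0.23) lost its call in edgeR and when any library but deficient replicate B was left out. Hypoxia targets outside glycolysis were lower in 10 of 20 cases and higher in 4 (median -0.28): ADM (-2.55), BHLHE40 (-2.37) and PLOD2 (-1.33) were lower, and carbonic anhydrase CA12 (1.97) and VEGFA were higher. VEGFA had 281, 232 and 271 in the deficient libraries and 326, 388 and 357 in the glucose-only libraries (log2 change 0.45, SE 0.10, adjusted p = 0.00057), with no overlap.

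In the hexosamine and nucleotide sugar list 4 of 21 genes were higher and 7 lower (median -0.28), against 20.1% and 23.2% of all genes. UAP1, which makes UDP-N-acetylglucosamine, had 286, 275 and 308 in the deficient libraries and 55.4, 50.3 and 52.9 in the glucose-only libraries (log2 change -2.43, SE 0.14, adjusted p = 2.9e-14). OGT and OGA, the enzymes that add N-acetylglucosamine to cytosolic and nuclear proteins and remove it, were both higher. OGT had 108, 91.8 and 113 in the deficient libraries and 235, 237 and 173 in the glucose-only libraries (log2 change 1.03, SE 0.12, adjusted p = 7.4e-08). OGA had 88.5, 84.5 and 80.0 in the deficient libraries and 194, 189 and 147 in the glucose-only libraries (log2 change 1.05, SE 0.12, adjusted p = 4.2e-08). None of these groups overlapped. GFPT1, the entry enzyme, which uses glutamine, changed by 0.32 and lost its call in DESeq2 and without deficient replicate B or any glucose-only library. Without glucose-only replicate B 2 members of the list were higher. UGDH (-1.53), NANS (-1.21) and GNPNAT1 (-1.09) were lower.

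Of 27 pentose phosphate and nucleotide genes 7 were higher and 8 lower, and 8 and 4 at equal totals. With the deposited scaling these shares were not far above the 20.1% higher and 23.2% lower of all genes. Transketolase (TKT) had 375, 443 and 426 in the deficient libraries and 165, 145 and 167 in the glucose-only libraries (log2 change -1.38, SE 0.10, adjusted p = 4.7e-12). PPAT (-1.37) and GART (-0.81), early enzymes of purine synthesis, were lower, while the higher genes included RRM1, RRM2 and TYMS, which supply deoxynucleotides. Of 25 tricarboxylic acid cycle genes 2 were higher, or 1 without deficient replicate A or C or glucose-only replicate A, and 3 lower. Both shares were under those of all genes. Of 19 fatty acid oxidation genes PDK4, which blocks pyruvate dehydrogenase, was lower (-2.60) and 2 were higher. That higher count was 0 in DESeq2 and without deficient or glucose-only replicate A, 1 without deficient B or glucose-only B or C, and 5 at equal totals, and the lower count was 2 without glucose-only B or C. For the 64 nuclear genes of the respiratory chain and ATP synthase no direction held: 3 were higher and 14 lower with the deposited scaling and 5 and 5 at equal totals. The lower count was 9 without glucose-only replicate A, and the higher count 1 without glucose-only replicate B. Among the 13 messenger RNAs of the mitochondrial genome 5 were lower, MT-CO1 (-0.68) and MT-CO2 (-0.66) most, and none higher, while after quantile normalisation 3 were lower and 2 higher.

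Lipid genes were mixed, and INSIG1 and SCD stood far lower in the media without glutamine than in those with it. INSIG1, which holds SREBP in the endoplasmic reticulum and is itself an SREBP target, had 41.6, 50.7 and 62.1 in the deficient libraries and 13.2, 24.1 and 19.99 in the glucose-only libraries (log2 change -1.40, SE 0.16, adjusted p = 3.9e-08). Its level in glutamine-only medium was 279.8 ± 11.8 and in full medium 227 ± 13.3. SCD, the stearoyl-CoA desaturase, had 126, 118 and 124 in the deficient libraries and 122, 116 and 152 in the glucose-only libraries, and these overlapping groups did not pass the test (log2 change 0.07, SE 0.10, adjusted p = 0.61). SCD was 990.1 ± 41.7 in glutamine-only and 674 ± 28.5 in full medium. Of 21 cholesterol genes 8 were lower and 2 higher (median -0.06): IDI1 (-1.70) was among those that fell and FDPS (0.88) among those that rose, both enzymes of isoprenoid synthesis. In fatty acid and triglyceride synthesis 3 of 18 were higher and 5 lower, with ELOVL5 at -1.13 and ACSL4 at -0.71. These shares were near the 20.1% higher and 23.2% lower of all genes.

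Lysosomal and nutrient-signalling genes were lower in 14 of 34 cases and higher in 5 (median -0.47). The higher count was 2 without deficient replicate C, 3 in DESeq2 and without deficient A or glucose-only A or C, and 8 at equal totals. RRAGC, a Rag GTPase that brings mTORC1 to the lysosome, had 69.0, 66.4 and 86.2 in the deficient libraries and 18.1, 18.9 and 11.8 in the glucose-only libraries (log2 change -2.14, SE 0.21, adjusted p = 2.7e-09). FLCN (-1.42) and FNIP1 (-1.36), which together act on Rag GTPases, were lower as well. MTOR itself was higher (1.05), as was the autophagy kinase ULK1 (0.95). The groups did not overlap in any of these 5 genes.

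Whether the effect of glucose depends on glutamine was asked with the difference between both glucose effects, glucose-only minus deficient and full minus glutamine-only, which share no library. With glutamine present, glucose changed 2083 genes (22.5%), 1078 higher (11.6%) and 1005 lower (10.8%). The difference itself passed the threshold for 2458 genes (26.5%), of which 1020 had a higher log2 effect without glutamine (11%) and 1438 a lower one (15.5%). Of the 1859 genes higher with glucose alone, 457 (24.6%) were also higher in the comparison with glutamine, which is 42.4% of its 1078 genes, and 130 were lower there. Of the 2149 lower genes 482 (22.4%) were also lower with glutamine, which is 48.0% of its 1005, and 159 were higher.

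The glucose effect differed with glutamine for more of the cytosolic chaperones than of the genes of the unfolded protein response. For DNAJB1 the log2 effect of glucose was -5.95 without and -1.31 with glutamine (difference -4.64, SE 0.15, adjusted p = 1.7e-19), and for HSPA8 it was -2.59 and -0.42 (difference -2.17, SE 0.15, adjusted p = 7.2e-12). Of the 21 cytosolic chaperone genes 18 had a lower effect without glutamine and none a higher one. HSPA5 had nearly the same effect in both settings, -2.37 and -2.31 (difference -0.06, SE 0.13, adjusted p = 0.78), which gives no difference past the threshold. In the list of the unfolded protein response 27 of 30 genes were lower with glucose when glutamine was present, and the difference was called for 10 in the higher and 2 in the lower direction.

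The ATF4 list differed most in the other direction. With glutamine present glucose lowered 22 of 26 members and raised none (median -1.51), and 20 members had a higher effect without glutamine, 1 a lower one. For TRIB3 the effects were -0.54 and -3.32 (difference 2.79, SE 0.20, adjusted p = 2.7e-11), for GDF15 -1.58 and -4.15 (difference 2.58, SE 0.37, adjusted p = 6.3e-06). For GFPT1 they were 0.32 and -2.08 (difference 2.40, SE 0.17, adjusted p = 2.7e-11), and for VEGFA 0.45 and -0.62 (difference 1.07, SE 0.14, adjusted p = 1.4e-06). TRIB3 thus stood at 146 in glucose-only and 141 in glutamine-only medium but at 13.4 in full medium. DDIT3 did not differ past the threshold (difference 0.79, SE 0.41, adjusted p = 0.15).

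Part of the division genes had a larger rise with glutamine. Part of the glycolysis genes had a higher log2 effect with it, which for HK2 was mostly a fall without glutamine. All 41 histone genes and 39 of 41 mitosis genes were higher with glucose when glutamine was there. A lower effect without glutamine was called for 17 histone and 16 mitosis genes, and a higher one for 1 in each list. In the DNA replication list 27 of 38 were higher with glutamine, and a lower effect without it was called for 3 (median difference -0.13), under the 15.5% of all genes. H3C3 changed by 1.70 without and 2.61 with glutamine (difference -0.91, SE 0.15, adjusted p = 5.8e-05). MKI67 changed by 1.54 and 2.04 (difference -0.51, SE 0.17, adjusted p = 0.026). In the glycolysis list 13 of 20 genes were higher and 1 lower with glutamine, and 12 had a lower effect without it, among them PGK1 (-0.29 and 1.01, difference -1.30, SE 0.16, adjusted p = 4.4e-07) and HK2 (-2.08 and 0.20, difference -2.28, SE 0.24, adjusted p = 2.6e-08). EGR1, MYC, CCN1 and INSIG1 had more negative log2 effects, that is larger falls, without glutamine, with differences of -2.62, -1.14, -1.01 and -1.10. For HMOX1 the difference was -3.29, which rests on 0, 1 and 6 reads in the glucose-only libraries.

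**Figure D4:**
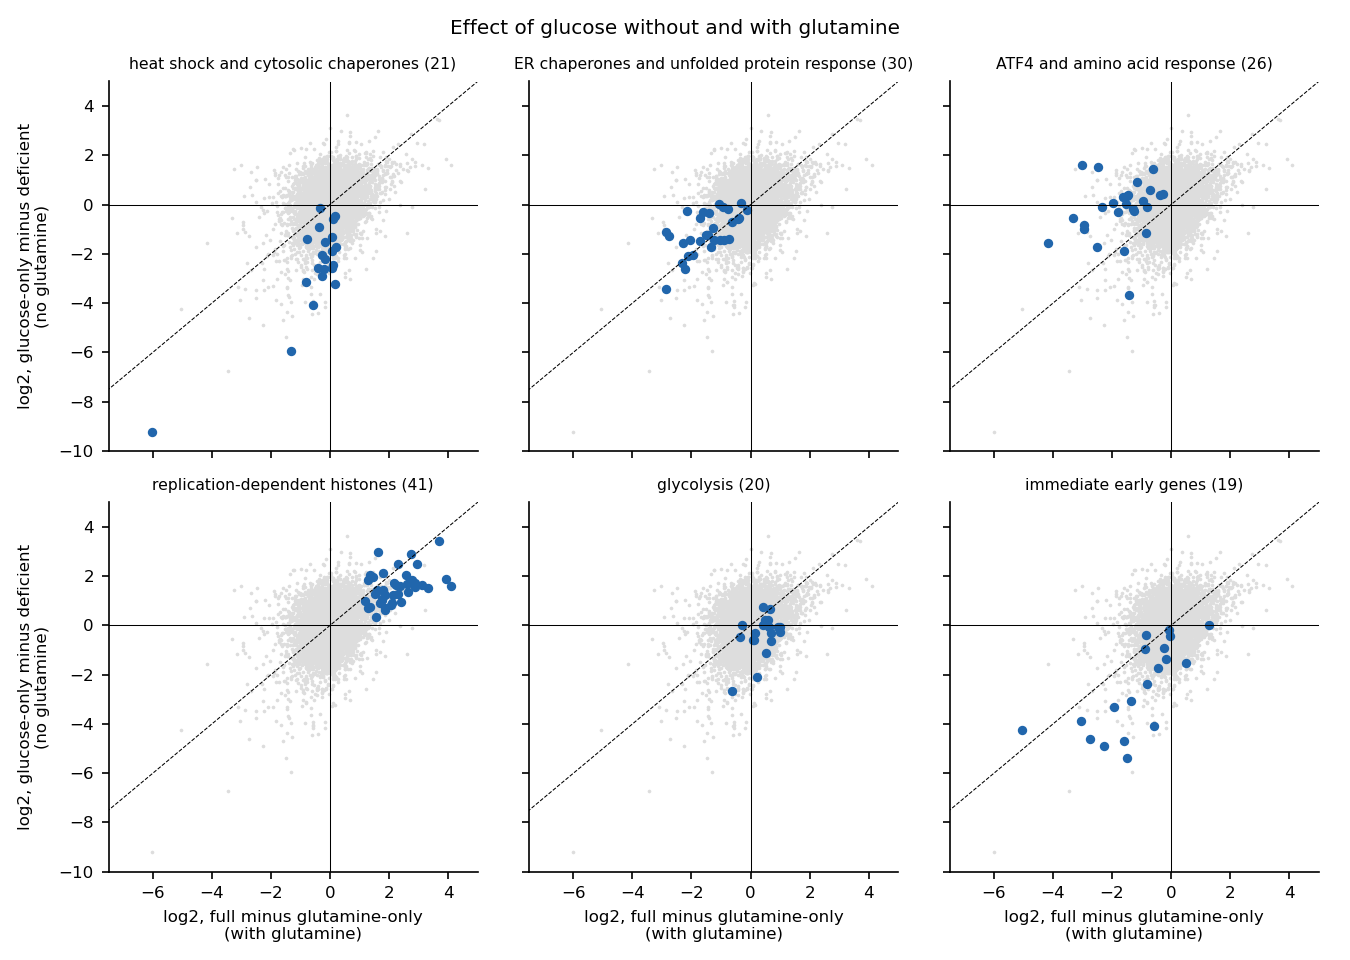
Log2 effect of glucose without glutamine (vertical, glucose-only minus deficient) against the effect with glutamine (horizontal, full minus glutamine-only) for all 9270 genes in grey and the tested members of 6 lists in blue. The dashed line marks equal effects. Most cytosolic chaperones lie below it, with DNAJB1 at -5.95 (vertical) and -1.31 (horizontal) and HSPA6 farthest to the left at -6.01, and ATF4 targets lie to its upper left, with TRIB3 at -0.54 (vertical) and -3.32 (horizontal).

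Set directly against glutamine alone, glucose alone differed in 1234 genes (13.3%), 468 higher (5.05%) and 766 lower (8.26%) than in glutamine-only libraries. This comparison shares the glucose-only libraries with the main one. TXNIP stood highest on the glucose side with a log2 difference of 4.19 among the fixed anchor genes, and INSIG1, HMOX1 and SCD lowest with -3.84, -3.78 and -2.93. Of the listed groups, 15 of 21 cholesterol genes, 13 of 18 fatty acid synthesis genes, 15 of 20 glycolytic genes, 15 of 20 hypoxia targets and 25 of 30 genes of the unfolded protein response were lower with glucose alone, while 30 of 41 histone genes were higher. HSPA5 differed by -2.04 and PGK1 by -1.48, both called lower with glucose alone. MYC (0.24), CCN1 (-0.03) and TRIB3 (0.05) did not pass the test, at adjusted p of 0.20, 0.88 and 0.86.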

How the data were processed

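Per the labels' protocols, RNA of MDA-MB-231 cells was made into ribosomal-RNA-depleted stranded libraries. The deposited values are gene signal: the authors divided each library's reads per gene by 1 size factor. The submitters' processing notes name FastQC, HISAT2, Subread, DESeq2 and build GRCh38.p14. Annotation release, strand setting and treatment of reads that fit several places are not given in the sources used here. In every library 100% of values were whole multiples of 1 step (tolerance 0.01 reads), so reads were recovered. On these, edgeR 4.0.16 called 3900 genes and DESeq2 1.42.0 called 2756 in the main comparison.

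Genes with a value of at least 10 in at least 3 of 12 libraries were tested with limma 3.58.1 (R 4.3.3, trend) on log2(value + 1), a pseudocount that understates changes of low genes, with 1 mean per medium. Tests were two-sided, with Benjamini-Hochberg adjustment over 9270 genes. The fit was also run on simulated reads with far fewer changed genes than were called here, so it was no check of the scaling. Intervals of read ratios are exact, conditional on the sum, and cover counting error only.

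The members and the 37 gene lists were chosen with earlier results of these data known. Named are the 12 highest and 12 lowest called genes with a mean of at least 100, separate groups and a proper symbol, up to 4 called members per list with a mean of at least 30, called members against a list's majority, and fixed anchors. Lack of overlap in the 12 highest and 12 lowest was thus a condition of the choice and is no result. Other members were chosen as examples after their values were seen, and some members are not reported here. Positions exist for 9059 tested genes in RefSeq (GRCh38.p14), and 7281 have a promoter window of 250 bases before to 50 after a start. Alternatives, which changed 1 choice at a time, were equal totals or quantile normalisation, the replicate letter as a block, pseudocounts of 0.5 and 8, dropping the filter or raising it to a mean of 100, the compared groups alone, adjusted p under 0.01 and each library left out. Deviations of same-letter libraries correlated at 0.15 to 0.54 between glutamine-only and full medium, where other letters gave -0.428 to 0.306. Between deficient and glucose-only libraries same letters gave -0.337 to 0.118 and other letters -0.267 to 0.323. Scaling on nuclear protein-coding genes was added after seeing the data.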

Additional observations from a re-analysis of the deposited data

Results flagged for a closer look

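For 16 anchor genes the effect of glucose differed between cells without and with glutamine past an adjusted p of 0.05 for the difference itself (limma, log2 effect without minus log2 effect with glutamine). It was lower without glutamine for DNAJB1 (-4.64), HMOX1 (-3.29, on few glucose-only reads), EGR1 (-2.62), HK2 (-2.28), HSPA8 (-2.17), PGK1 (-1.30), MYC (-1.14), INSIG1 (-1.10), CCN1 (-1.01), H3C3 (-0.91) and MKI67 (-0.51). It was higher without glutamine for TRIB3 (2.79), GDF15 (2.58), GFPT1 (2.40), VEGFA (1.07) and SCD (0.62). For all genes tested the difference passed in 26.5% of cases.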

How the results depend on the processing

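The count of called genes in the main comparison stayed within 1.5 times of 4008 under every alternative except the stricter filter, with 3488 to 3633 when a library was left out, 1552 to 1683 higher and 1880 to 1950 lower. Under a mean of at least 100 fewer genes could be tested, and 776 were called (250 higher, 526 lower), 624 with glutamine (315, 309), 632 for the difference (183, 449) and 486 against glutamine-only (174, 312). DESeq2 called 1231 higher genes in the main comparison, 1495 for the difference (651, 844) and 604 against glutamine-only (179, 425). Adjusted p under 0.01 left 1219 higher genes, 1276 with glutamine (666, 610), 1496 for the difference (567, 929) and 656 against glutamine-only (181, 475). Equal totals gave 1404 lower genes in the main comparison, 629 lower with glutamine and 245 higher against glutamine-only. The cause of these shifts, other than the smaller number of genes tested, was not tested. After quantile normalisation PHLDA1 and FN1, which had log2 changes of -0.30 each, reversed to 0.057 and 0.082. With the replicate block 4036 genes were called and no named gene changed its call. It called 2135 genes with glutamine, 2492 for the difference and 1276 against glutamine-only. In 9 cases a list count moved by 1 gene. Same-letter correlations of deviations ran from -0.337 to 0.118 between deficient and glucose-only libraries, beside -0.267 to 0.323 for other letters. The letters therefore show no pairing there. Between glutamine-only and full libraries same letters gave 0.15 to 0.54 and other letters -0.428 to 0.306. These ranges overlap, so pairing there is unclear. Same letters gave 0.0319 to 0.63 between deficient and full libraries, beside -0.6 to 0.382 for other letters. Between deficient and glutamine-only libraries same letters gave 0.0569 to 0.542 and other letters -0.493 to 0.406. All these same-letter values were positive, but the ranges overlap, so pairing is unclear there too. With 1 read worth a normalised count of 0.661 to 1.30, genes near the filter of 10 rest on few reads, and a missing call there does not show equal levels.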

Other observations

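Further gene lists showed shares near or under those of all genes, 20.1% higher and 23.2% lower, for the splicing and apoptosis genes, and more calls in 1 direction for others. Of 31 proteasome subunits 10 were lower and none higher (median log2 change -0.20), but only 3 were lower in DESeq2, and at equal totals 2 were higher and 2 lower. Among 14 transcripts that host small nucleolar RNAs 9 were lower, SNHG15 most (-1.46), and SNHG3 was higher (1.21). Of 23 splicing regulators 6 were lower, among them SRSF3 (-1.05) and TRA2B (-0.92) and 3 higher, among them SRSF1 (0.75). Of 20 apoptosis regulators 3 were lower, among them BCL2L11 (-1.43) and PMAIP1 (-0.74), and 3 higher, CASP8 (1.14), BIRC3 (0.73) and CFLAR (0.60).

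Inflammatory genes were mixed. Of 15 NF-kB targets 6 were higher, with ICAM1 (1.54) and CXCL1 (1.42) at the top, and 3 lower, with TNFAIP3 (-1.71) and CSF2 (-1.89) at the bottom. Of 15 interferon-stimulated genes 6 were higher and 1 lower (median 0.58), with 2 and 0 in DESeq2 and 11 and 0 at equal totals, and 2 and 0 without deficient replicate A. Beyond messenger RNA, 92 of 276 long noncoding RNAs were higher and 43 lower (median 0.39), and 16 of 51 microRNA genes were higher and none lower.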
